A study of Mus musculus with 6 samples.

Results

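The 9 genes described here encode the signaling chains of the B cell receptor (BCR), the proteins that carry or restrain its signal, and proteins by which B cells are recognized: *Cd79a*, *Cd79b*, *Ms4a1*, *Cd22*, *Pax5*, *Blk*, *Btk*, *Blnk* and *Cr2*. They were taken by symbol from the 20076 genes of the deposited table. All 9 passed the filter on low values, for which 3 or more tumors had to reach a value of 1, and which kept 19667 genes. Bulk poly(A) RNA had been sequenced from 3 primary tumors of WT mice and 3 of *Tgm2* knockout mice. Each tumor grew from cells of the mouse ovarian cancer line ID8 with both *Trp53* and *Brca1* disrupted (*Trp53*-/- *Brca1*-/-), placed under the bursa of the ovary, and was taken 6 weeks later. WT mice were C57BL/6, and the mice used were between 6 and 10 weeks old. The knockout is carried by the host, so that cancer cells of the same genotype were present in both groups. Mice were injected on both sides, and the labels number the tumors within a genotype without stating whether each came from another mouse, so the p-values below measure the spread between these samples.

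On a mature B cell, membrane immunoglobulin binds antigen and the CD79A-CD79B pair carries the signal into the cell. Kinases of the Src family such as BLK phosphorylate the tails of that pair, the adaptor BLNK then assembles a complex with the kinase BTK, and CD22 dampens the response. CR2 (CD21) binds complement fragments and lowers the threshold for activation, MS4A1 (CD20) is a surface marker of mature B cells, and PAX5 is the transcription factor that maintains B cell identity. When B cells become antibody-secreting plasma cells, *Pax5*, *Ms4a1*, *Cd22* and *Cr2* are turned down while *Cd79a* is usually kept. BTK and BLNK are also made by myeloid cells, and CR2 by follicular dendritic cells.

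The deposited values are normalized counts, estimated read counts divided by a size factor for each tumor. Their totals ran from 33916288 to 35325875 over the WT tumors and from 32316613 to 37717165 over the knockout tumors. The steps between the low values put 1 read at 0.938 to 1.09 normalized counts, so that a value near 3 rests on about as many reads. *Tgm2* was read first as a check of the labels. WT tumors 1 to 3 held 14978, 12155 and 13180 normalized counts of it, and knockout tumors 1 to 3 held 5853, 6071 and 8157. The groups were apart in the direction of the labels, but the log2 fold change of -1.02 did not pass adjustment (adjusted p = 0.391 from limma). Reads were left in every knockout tumor. The cancer cells of these tumors do not carry the knockout, but the source of those reads was not tested.

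The labels call the cells of these tumors cancer cells. Summed over 10 markers of ovarian surface epithelium and mesothelium, led by *Wt1*, which cells of the ovarian line ID8 can express themselves, normalized counts lay between 60450 and 84459 per tumor. Genes of leukocytes and fat were present in all tumors as well. For the 10 general leukocyte genes, led by *Laptm5*, the sums of the WT tumors were 36904, 26637 and 20306, and those of the knockout tumors 25310, 45705 and 49455. For the 12 white adipocyte markers, led by *Lpl*, the WT sums were 53626, 66835 and 40172, against 58419, 213828 and 129003 with the knockout. Both sums overlapped between the groups and were highest in knockout tumors 2 and 3. Gene by gene, every knockout tumor lay above every WT tumor in 6 of the 12 adipocyte genes and in 1 of the 10 leukocyte genes, *Cd52*. That pattern was found in 5.18% of all tested genes. None of the markers on these 3 lists was at 0 over the 6 tumors.

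The BCR and identity genes did not all move by the same amount. Log2 fold changes were above 0 in 8 of the 9, and the 95% intervals of *Cd22*, *Pax5*, *Blk*, *Btk*, *Blnk* and *Cr2* included 0. *Cd79a* was the only one past both limits in limma (adjusted p of 0.05, log2 fold change of 1 in size), a count of 1 of 9 where 0.102% of all tested genes were called higher. None was called lower, where 0% of all tested genes were. In 4 of the 9 genes, *Cd79a*, *Cd79b*, *Ms4a1* and *Pax5*, every knockout tumor lay above every WT tumor, a pattern found in 5.18% of all tested genes. In 0 of the 9 did every knockout tumor lie below every WT tumor (5.33% of all tested genes), and in the other 5 genes the groups overlapped. The median log2 fold change, on the scale of log2(value + 1), was 0.71 for the 9 genes and -0.03 for all tested genes. Without adjustment, 3 of the 9 genes were higher and 0 were lower at p of 0.05 and the same fold limit in limma, against 491 and 305 of all genes. More B cells in a tumor and more of a transcript per B cell cannot be told apart in bulk RNA.

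**Figure D1:**
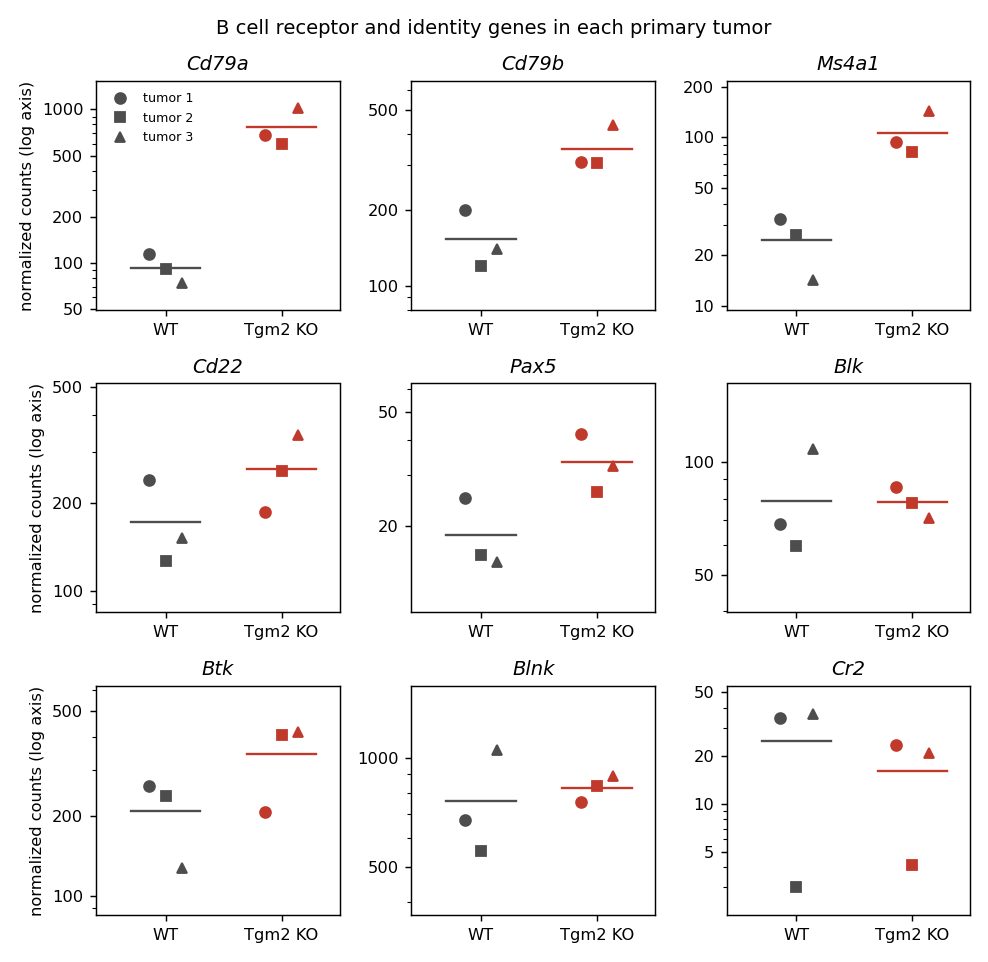
Normalized counts (log axis) of the 9 genes in each tumor of WT (gray) and *Tgm2* knockout (red) mice, with a symbol for each tumor number, which does not pair the tumors, and a line at the group mean. *Cd79a*, *Cd79b*, *Ms4a1* and *Pax5* do not overlap between the groups, and the other 5 genes do.

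*Cd79a* encodes the alpha chain of the signaling pair (GRCm38 chromosome 7, 24897381 to 24902197, plus strand). WT tumors 1 to 3 held 114, 91.6 and 74.1 normalized counts, and knockout tumors 1 to 3 held 686, 593 and 1022. The lowest knockout tumor was thus far above the highest WT tumor. The means were 93.3 ± 20.2 and 767 ± 226 (SD, n = 3 tumors per group), a ratio of 8.22. The log2 fold change was 3.01 (standard error 0.34, 95% interval 2.23 to 3.79, adjusted p = 0.0264 from limma), which placed *Cd79a* at rank 12 of the tested genes by p-value. The call was narrow: *Cd79a* was past the limits in 6 of 17 alternative fits, and in 0 of the 6 fits without any single tumor, where the adjusted p-value from limma ran from 0.0638 to 0.161. The size was not, with log2 fold changes of 2.78 to 3.17 in those 6 fits. With the mean of the white adipocyte markers as a covariate, the log2 fold change of *Cd79a* was 3.0 and its adjusted p 0.512 from limma.

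*Cd79b*, the beta chain of the same pair, lies on chromosome 11 from 106311341 to 106314762. It stood at 199, 120 and 139 normalized counts in WT tumors and at 310, 307 and 433 in knockout tumors. The groups did not overlap, but the highest WT tumor came within reach of the lowest knockout tumors. Its log2 fold change of 1.20 (standard error 0.34, 95% interval 0.42 to 1.99) did not pass adjustment (adjusted p = 0.649 from limma). The proteins of the pair act together, yet their transcripts did not keep 1 ratio. *Cd79a* over *Cd79b* was 0.573, 0.763 and 0.532 in WT tumors and 2.21, 1.93 and 2.36 in knockout tumors. The ratio lay below 1 in every WT tumor and above 1 in every knockout tumor, without overlap. The log2 difference *Cd79a* minus *Cd79b* was higher by 1.80 in knockout tumors.

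*Ms4a1*, which encodes CD20, lies on chromosome 19 from 11249675 to 11266241. WT tumors held 32.9, 26.4 and 14.1 normalized counts, and knockout tumors held 94.5, 82.0 and 144. The groups did not overlap. The order of the knockout tumors was that of *Cd79a* and *Cd79b*, with tumor 3 highest and tumor 2 lowest. A log2 fold change of 2.12 had a wide interval (0.85 to 3.39) and did not pass adjustment (adjusted p = 0.591 from limma), although its size came next after *Cd79a* among the 9 genes. Across 17 alternative fits it stayed between 1.60 and 2.36.

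*Pax5*, on chromosome 4 from 44524757 to 44710487, was low in all tumors. WT tumors held 25.0, 15.8 and 15.0 normalized counts, and knockout tumors held 41.8, 26.2 and 32.3. WT tumor 1 and knockout tumor 2 nearly met. At 0.82, its log2 fold change had an interval of -0.51 to 2.15 (adjusted p = 0.894 from limma), which includes no difference as well as a rise of the size of *Cd79b*. Exons of *5730488B01Rik* and *Gm12462* overlap those of *Pax5* on the opposite strand, and whether the counting used strand is not given in the sources used here.

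The surface proteins that tune the signal did not separate the groups. *Cd22*, the inhibitory receptor, was at 239, 126 and 151 normalized counts in WT tumors and at 187, 258 and 342 in knockout tumors. WT tumor 1 lay above knockout tumor 1. The log2 fold change was 0.61 (95% interval -0.29 to 1.51, adjusted p = 0.891 from limma). Exons of *Gm29439* overlap those of *Cd22* on the opposite strand. *Cr2*, the complement receptor, was at 34.4, 3.02 and 36.6 normalized counts in WT tumors and at 23.3, 4.14 and 20.8 in knockout tumors. The tumor numbered 2 was low in both genotypes, on a few reads each, and the spread within a genotype exceeded any difference between them. A log2 fold change of -0.32 had an interval of -2.76 to 2.11 (adjusted p = 0.973 from limma), so that a change of several fold in either direction was not detectable. Its sign turned without WT tumor 1 (0.18), without WT tumor 3 (0.23), without knockout tumor 2 (0.40) and with the adipocyte covariate (2.82).

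The intracellular signaling genes overlapped between the groups. *Blnk*, the adaptor, had the highest normalized counts of the 9 genes in each WT tumor, at 672, 551 and 1053 normalized counts in WT tumors and 752, 838 and 892 in knockout tumors. WT tumor 3 was the highest of all 6. Its log2 fold change of 0.18 had the narrowest interval of the 9 genes, -0.46 to 0.81 (adjusted p = 0.940 from limma), whose upper end lies below the lower end for *Cd79a*. *Blk*, the Src family kinase, stood at 68.4, 59.6 and 108 in WT tumors and at 85.9, 78.1 and 71.0 in knockout tumors. All knockout tumors lay inside the WT range, with a log2 fold change of 0.04 (95% interval -1.01 to 1.08). *Btk*, the Tec family kinase, stood at 261, 238 and 127 in WT tumors and at 207, 407 and 415 in knockout tumors. Knockout tumors 2 and 3, the tumors richest in leukocyte transcripts, were the high ones, and knockout tumor 1 lay below WT tumors 1 and 2. The log2 fold change of *Btk* was 0.71 (95% interval -0.25 to 1.68, adjusted p = 0.891 from limma), and with the adipocyte covariate it was -0.51.

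**Figure D2:**
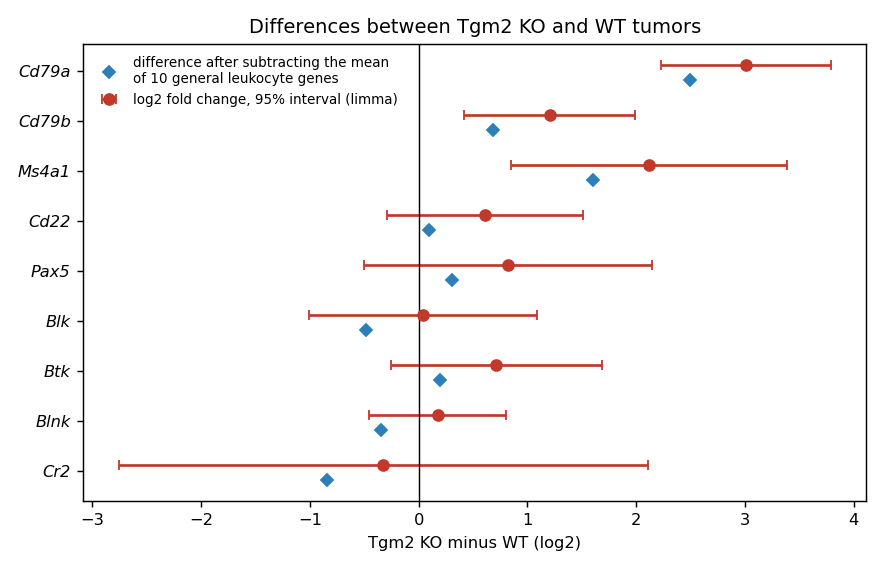
Log2 fold change between *Tgm2* knockout and WT tumors with its 95% interval from limma (red circles), and the difference after the mean log2 value of 10 general leukocyte genes of the same tumor was subtracted (blue diamonds). *Cd79a* stands at 3.01 and 2.49. The subtraction lowers every gene by the same 0.52, which moves *Blk* and *Blnk* from 0.04 and 0.18 to -0.48 and -0.34.

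Levels were compared between genes as normalized counts per kb of the longest protein-coding transcript in GENCODE M21. In WT tumors *Blnk* led with a mean of 362, followed by *Cd79b* with 107, *Btk* with 82.1, *Cd79a* with 64.0, *Cd22* with 43.3 and *Blk* with 33.8 per kb. *Ms4a1* (7.96), *Cr2* (3.97) and *Pax5* (2.33) were far lower. Among these, *Blnk* stood apart from *Cd79b* and *Blk* from *Ms4a1*, and the ranges of the other neighbors overlapped. In knockout tumors *Cd79a* moved from place 4 to place 1 with 526 per kb, and its range overlapped that of *Blnk* at 395 per kb. *Cd79b* followed with 245, apart from both of its neighbors, and *Btk* with 135. *Ms4a1* (34.8) then stood level with *Blk* (33.7), while *Pax5* (4.18) and *Cr2* (2.59) remained the lowest.

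**Figure D3:**
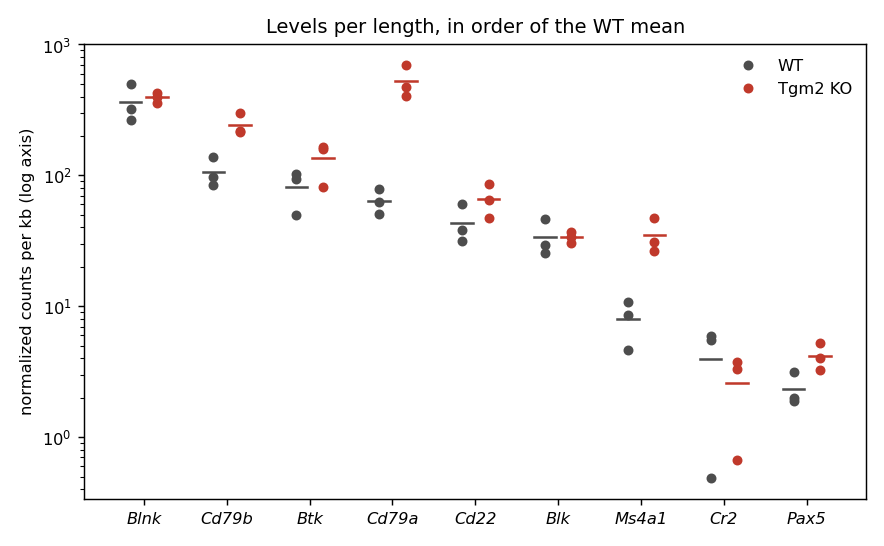
Normalized counts per kb of the longest protein-coding transcript (log axis) for the 9 genes, ordered by the WT mean. Points are tumors and lines are group means. *Cd79a* lies at 64.0 per kb in WT and 526 per kb in knockout tumors.

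*Cd79a* was set against the other genes within each tumor, where a general change of the tumor cancels. It was chosen for this with its fold change known to be the largest of the 9, which fixes the sign of the group differences, so they are given as a description without a test. Its log2 value minus that of each of the other 8 genes was compared between the groups. In all 8 differences the knockout tumors lay above the WT tumors without overlap, by 0.89 against *Ms4a1*, 1.80 against *Cd79b*, 2.19 against *Pax5* and 2.97 against *Blk*. The distance to *Ms4a1* was 2.85, 2.84 and 2.81 in the knockout tumors, where both genes kept nearly 1 ratio, and 1.76, 1.76 and 2.31 in the WT tumors.

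**Figure D4:**
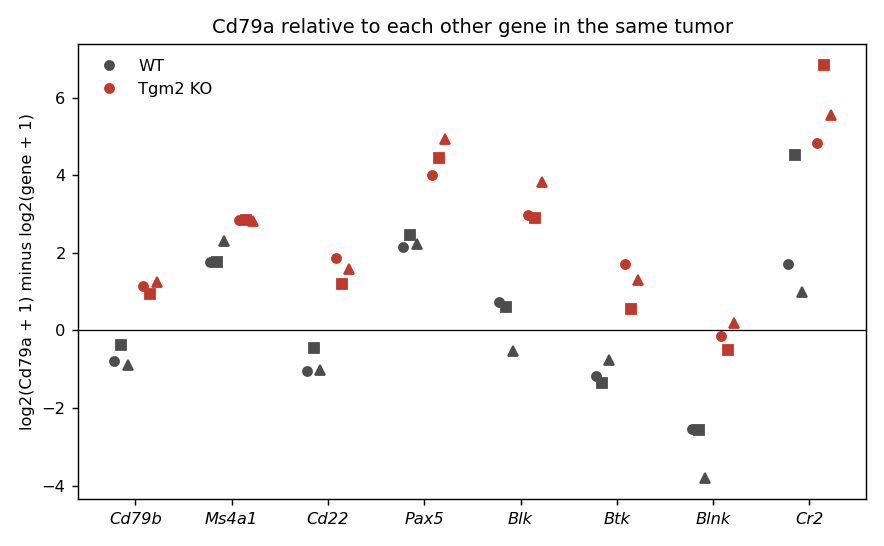
Log2(*Cd79a* + 1) minus log2(gene + 1) in the same tumor for the other 8 genes, with WT tumors in gray and *Tgm2* knockout tumors in red and a symbol for each tumor number. Every red point lies above every gray point of its gene, and the differences to *Cd79b* change from below 0 to above 0.

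The 9 genes were also set against the general leukocyte genes of the same tumor. The mean log2 value of those 10 genes was 11.52, 11.13 and 10.63 in WT tumors and 10.98, 11.92 and 11.94 in knockout tumors, with overlap (two-sided exact permutation test, p = 0.3). Relative to it, *Cd79a* was higher by 2.49 and *Ms4a1* by 1.60 in knockout tumors, again without overlap (exact permutation test, p = 0.1 for both, the smallest p possible with 3 tumors per group). The share of all tested genes without overlap was not counted on this scale. The 5.18% given above is for values without the subtraction, so these 2 genes have no background to be read against. *Cd79b* was higher by 0.69 with overlapping groups (p = 0.2 in the exact permutation test), since knockout tumor 2 fell below WT tumor 3. *Pax5* was higher by 0.30 and *Cd22* by 0.09, and *Blk*, *Blnk* and *Cr2* were at -0.48, -0.34 and -0.84, all with overlap. *Btk* had the narrowest range of distances to the leukocyte mean, between -3.63 and -3.23 in all 6 tumors. With all genes centered on the leukocyte genes, which shifted the median of all tested genes to -0.55, *Cd79a* had an adjusted p of 0.439 from limma.

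The genes with the profile most like that of *Cd79a*, *Cd79b* and *Ms4a1* over the 6 tumors were sought among 16736 other genes with a mean of at least 10, by the root mean square difference of centered log2 values. Nearest to *Cd79a* were *Cacna1s* (0.21), *H2-Eb2* (0.31) and *Fcrla* (0.33). *H2-Eb2* belongs to the MHC class II region and *Fcrla* encodes an Fc receptor-like protein of B cells. *H2-Eb2* stood at 45.4, 46.9 and 44.6 normalized counts in WT tumors and at 247, 261 and 329 in knockout tumors. Nearest to *Cd79b* were *Cyp4b1* (0.11), *Slc13a3* (0.13) and *Lrrc3* (0.13), and nearest to *Ms4a1* were *4930438A08Rik* (0.22), *Cxcr3* (0.24) and *Habp2* (0.25). None of these 9 neighbors passed adjustment. Only *H2-Eb2* and *Fcrla* are described by function here, and *Cacna1s* was nearer to *Cd79a* than either. A like profile over 6 tumors is not by itself a sign of expression in B cells. Among the 9 genes themselves, *Blk* and *Blnk* were the closest pair (0.17), *Cd79b* lay nearest to *Pax5* (0.33) and *Cd22* (0.33), and *Cd79a* nearest to *Ms4a1* (0.48) rather than to its partner *Cd79b* (0.92).

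Further genes of B cells were divided in the same way. Of 22 surface and regulator genes, 1 was called higher and 0 lower, 10 had every knockout tumor above every WT tumor, and their median log2 fold change was 0.74. The shares over all tested genes to set beside this and the following lists are 0.102% called higher, 5.18% with every knockout tumor above and 5.33% with every knockout tumor below the WT tumors. The called gene was *Pou2af1*, a coactivator that B cells and plasma cells use with octamer-binding factors, at 68.2, 30.2 and 102 normalized counts in WT tumors and 681, 708 and 1149 in knockout tumors (log2 fold change 3.76, limma adjusted p = 0.0439). With the white adipocyte covariate 0 of all tested genes were called, so this call and those of the following lists were lost there. Of the 12 adipocyte genes behind the covariate, 6 were themselves separated upward between the groups. *Cd79a* kept a log2 fold change of 3.0 in that fit, and the sizes for the called genes of the lists are not given. Why the calls were lost was not tested. *Fcrla* (2.85, adjusted p = 0.110 from limma) and *Vpreb3* (2.77, adjusted p = 0.373 from limma), the latter picked after its values were seen, had log2 fold changes near that of *Cd79a* without passing adjustment. The 3 of the 22 with the highest normalized counts had log2 fold changes of -0.17 for *Cd72*, -0.12 for *Ralgps2* and -0.67 for *Spib*, all with overlapping groups. In WT tumors these 3 genes stood at 673 to 2020 normalized counts, against 14.1 to 32.9 for *Ms4a1*. Which cells made them was not tested, so their values need not be those of B cells. *Cxcr5* (1.49), *Bank1* (1.09) and *Siglecg* (1.07), also picked after their values were seen, had non-overlapping groups.

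Downstream of the receptor no gene passed the test. Of 21 activating signaling genes 0 were called, 1 had every knockout tumor above every WT tumor and 1 had every knockout tumor below, with a median log2 fold change of 0.28. The highest normalized counts were those of *Cd81*, a partner of CR2 on B cells (0.02), *Grb2* (0.03) and *Pik3r1* (0.55). The separated pair, picked after the values were seen, were *Rasgrp3*, a Ras activator, with a log2 fold change of 1.31 (limma, adjusted p = 0.435), and *Malt1*, with -0.39. Of 13 inhibitory signaling genes 0 were called, 1 was separated upward (*Siglecg*) and the median was 0.24, with *Csk* at 0.03, *Fcgr2b* at 0.52 and *Ptpn6* at 0.30. Both signaling lists hold genes that macrophages express as well, and the 12 macrophage markers had a median log2 fold change of 0.41 with 0 called and 0 separated.

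*Ighm* and *Ighd* encode the heavy chains that complete the receptor on naive cells. The groups did not overlap for *Ighm* (6869, 1926 and 2681 against 9546, 10525 and 17862 normalized counts), although it did not pass adjustment. They did for *Ighd*, which marks mature naive B cells, with 15.4 to 48.4 normalized counts in WT tumors and 33.0 to 83.9 in knockout tumors. Of 12 plasma cell genes 2 were called, *Jchain* (4.80) and *Mzb1* (4.27), 9 had every knockout tumor above every WT tumor, and the median was 1.45. Of 6 genes of B cell progenitors 4 were tested and 0 were called. *Il7r*, the interleukin 7 receptor, which T cells also express, had the highest normalized counts of them and a log2 fold change of 0.81 with overlap, while *Vpreb1* was at 4.24 to 14.4 and *Dntt* at 2.53 to 16.4 normalized counts over all tumors. Of 8 germinal center genes 0 were called, the median was 0.13, and every knockout tumor lay above every WT tumor in 2, *Gcsam* (1.70) and *Mef2b* (1.02), both picked after their values were seen. *Rgs13*, a regulator of G protein signaling known from germinal center B cells, picked after its values were seen, reached 76.1 normalized counts in knockout tumor 1 against 1.05 to 7.90 elsewhere. Of 8 genes of B1 and marginal zone cells 0 were called, with a median of 0.14.

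Markers of lymphoid tissue and of other cells were read beside these values. Of 10 genes of follicular dendritic cells and lymphoid stroma 0 were called and 0 separated, with a median log2 fold change of 0.32. Their sums were 59379 to 127857 in WT tumors and 64481 to 97320 in knockout tumors, led by *Clu*. That gene alone held 47891 to 105893 normalized counts over the 6 tumors, and the cells it came from were not tested. *Cxcl13*, the chemokine of B cell follicles, picked after its values were seen, stood at 261, 250 and 99.5 in WT tumors and at 215, 396 and 476 in knockout tumors. Of 12 T cell genes 0 were called, 5 had every knockout tumor above every WT tumor and the median was 0.88, with sums of 2237, 1467 and 1375 in WT tumors and 2462, 2571 and 4330 in knockout tumors, led by *Trac*. Of 7 natural killer cell genes 0 were called, 3 were separated upward and the median was 1.01. Of 7 plasmacytoid dendritic cell genes 0 were called, 2 were separated upward and the median was 0.19. The 12 white adipocyte genes had a median of 1.80 with 6 separated upward and 1 called, *Lep*. The 8 fibroblast genes had a median of 0.60 with 0 called and 0 separated, and the 6 endothelial genes a median of 0.51 with 0 called and 1 separated in each direction. The 10 epithelial and mesothelial genes had a median of -0.32 with 0 called, and 3 of them were separated downward, *Krt8*, *Krt19* and, picked after its values were seen, *Upk1b*. Without adjustment, at p of 0.05 and the fold limit in limma, 0 genes of any of these lists were lower, against 305 of the 19667 tested genes. The genes higher, against 491 of all, were 5 of the surface and regulator list, 1 of the activating and 0 of the inhibitory signaling lists, 0 of the progenitor, 1 of the germinal center, 0 of the B1 and marginal zone and 6 of the plasma cell lists, and 1 of the 2 heavy chains. In the same count 1 was higher in the lymphoid stroma list, 0 in the macrophage, 2 in the T cell, 0 in the natural killer, 2 in the plasmacytoid, 1 in the general leukocyte and 9 in the adipocyte lists, and 0 in the fibroblast, endothelial and epithelial lists. Among the genes with the highest normalized counts of their lists, log2 fold changes were 0.51 for *Xbp1* and 0.41 for *Txndc5* of the plasma cell list, 0.06 for *S1pr2*, 0.21 for *Bcl6* and -0.26 for *Fas* of the germinal center list, and -0.58 for *Cd9*, -1.02 for *Plac8* and 0.43 for *Spn* of the B1 and marginal zone list. They were 0.73 for *Trac*, 1.49 for *Cd4* and 0.42 for *Lck* of the T cell list, 0.22 for *Lyz2*, 0.48 for *C1qa* and 0.39 for *C1qb* of the macrophage list, and 0.48 for *Lpl*, 1.65 for *Cfd* and 1.43 for *Scd1* of the adipocyte list. None of these passed adjustment. The part of plasma cells and of T cells in the *Cd79a* result was not tested.

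**Figure D5:**
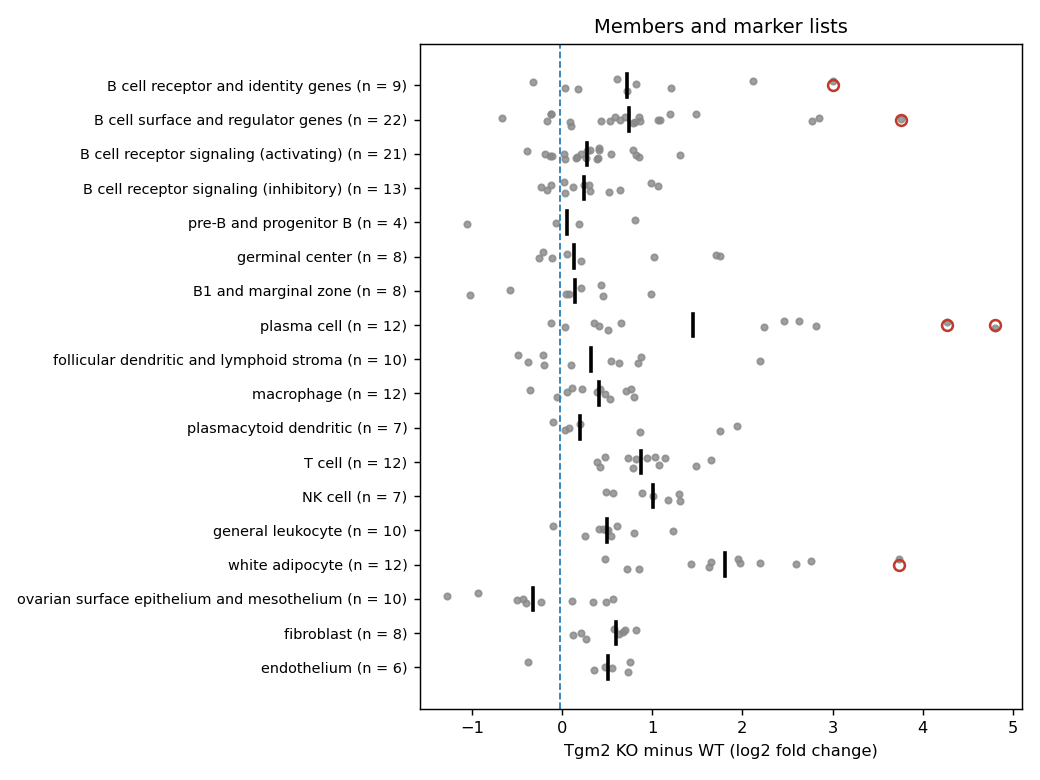
Log2 fold change of each gene of the BCR and identity set and of the marker lists (gray points, spread vertically for legibility), with the median of a list as a black bar, the median of all tested genes (-0.03) as a dashed line and genes past the limits circled in red. Plasma cell genes reach 4.80, while both signaling lists center at 0.28 and 0.24.

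Promoter windows of 6 of the 9 genes, from 250 bases before to 50 after the transcript start in RefSeq on GRCm38.p6, were searched on both strands for the octamer ATGCAAAT, the E-box CAGGTG and the ETS site GAGGAAGT, letters that B cell factors are known to bind. *Cd79b*, *Ms4a1* and *Blk* were not searched. The stretches with a match in *Cd79a*, the gene that rose, are shown beside those of *Cr2* and *Blnk*, which did not separate the groups. They lie at chr7:24897331-24897360 (plus strand, outside the GENCODE gene), chr1:195176790-195176819 (minus strand, outside the gene) and chr19:40994333-40994362 (minus strand, within an exon), and the capitals mark the match.
Cd79a E-box: ttgtggccagccCAGGTGcagggcagttcc
Cr2 E-box: tccgcccctagtCACCTGcagttgtgcttc
Blnk octamer: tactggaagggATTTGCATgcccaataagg
The *Cd79a* match begins 154 bases before the start, the *Cr2* match 88 and the *Blnk* match 130. E-box letters were also found in *Cd22* and *Blnk*, and stand in 20.2% of 32817 promoter windows of this length. The octamer was found in *Blnk* among the 6 and stands in 1.74% of all windows, and the ETS letters, in 3.20% of all windows, were found in 0 of the 6. A match was thus present both in a gene that rose and in genes that did not pass the test.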

How the data were processed

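Paired reads were assigned to transcripts by the authors with kallisto (the submitters' processing notes name 0.46.2 and GRCm38), transcripts were mapped to genes with biomaRt, low genes were dropped and DESeq2 size factors were applied. The deposited signal values are normalized counts. The table is labelled TPM, but its columns are not whole counts and sum to far more than TPM values can. Each column was matched to 1 tumor by its library name.

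Log2(value + 1) was compared with limma 3.58.1 in R 4.3.3, with 1 contrast, no covariate, a trend of variance on mean, and Benjamini-Hochberg adjustment over 19667 genes. The design followed the limits of the study, but limma replaced its count model because the values are not whole. Two-sided exact permutation tests used scipy 1.17.1 in Python 3.11.15. The members and the lists were chosen with earlier results of these data known. The rule named all 9 genes, the 3 most abundant genes of each list (given in the text for the lists nearest to B cells and for the T cell, macrophage and adipocyte lists), list genes past the limits, the 3 nearest profiles and *Tgm2*. Reads were estimated from genes with 1 transcript, with values of up to 5 reads and a tolerance of 0.1. Positions and lengths come from GENCODE M21 on GRCm38. The fit was tested on simulated data. Alternatives changed the pseudocount, filter, scaling, covariate, variance model, weights, replicate block and the tumors included.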

Additional observations from a re-analysis of the deposited data

How the results depend on the processing

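*Cr2* rests on few reads in both tumors numbered 2. In the 17 alternative fits *Cd79a*, *Cd79b*, *Ms4a1*, *Cd22* and *Pax5* kept a positive log2 fold change. The count of genes past the limits, 20 higher and 0 lower, became 0 higher with the white adipocyte covariate, 4 without a variance trend and 5 with the replicate block, and ranged from 2 to 14 higher and from 0 to 1 lower when 1 tumor was left out (2 without WT tumor 2, 7 without WT tumor 1, 11 without knockout tumor 1 or 2, 13 without WT tumor 3). The count of the 9 genes past the limits, 1, was 0 with quantile normalization, centering on the leukocyte genes, the adipocyte covariate, no variance trend and the replicate block, and 0 without any 1 tumor. For *Cd79a* the adjusted p-values from limma were 0.0529, 0.439, 0.512, 0.0735 and 0.341 in the 5 fits named, in that order, with log2 fold changes of 2.96, 2.49, 3.0, 3.01 and 3.01. The median log2 fold change of the 9 genes, 0.71, was 0.20 after centering on the leukocyte genes and 1.27 with the adipocyte covariate, and 0.54 to 0.91 without 1 tumor. Signs turned for *Blk* after quantile normalization (-0.13), and for *Btk* (-0.51) and *Cr2* (2.82) with the adipocyte covariate. Centering lowered every gene by the same 0.52, and that shift alone put *Blk* at -0.48 and *Blnk* at -0.34. Without 1 tumor *Blk* ran from -0.14 to 0.29, *Blnk* from -0.027 (without WT tumor 2) to 0.44 and *Cr2* from -1.39 to 0.40. Apart from the common shift of centering, the cause of these changes was not tested.

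The replicate numbers are shared by the genotypes, but nothing in the labels pairs them. Deviations of same-numbered tumors from their group means correlated at -0.20, 0.28 and -0.31 across genes for numbers 1 to 3, and WT tumors 1 and 3 correlated best with another number, so the block results above concern numbers only. The number of genes called was 5 under the block.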
